A study of Mus musculus with 40 samples.

Results

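Wild-type pro-B cells (fraction FrB) were compared with wild-type late pre-B cells (fraction FrD) of the same 5 mice. The 10 libraries, chosen by the genotype, fraction letter and mouse number in their titles (mice 1, 2, 3, 6 and 7), are part of a series of 40. In that series, bone marrow of WT mice, or of mice made by CRISPR/Cas9 to be homozygous for the P198A allele, was put into lethally irradiated CD45.1 hosts and left for 8 weeks. Donor cells (CD45.2+, CD45.1-) of the host marrow were then sorted, 100 cells to a library, into lysis buffer with ERCC spike-in RNA, and their polyA RNA was amplified by Smart-seq2. The FrB gate was B220+ CD43+ CD24+ BP1- and, as described, did not include IgM or IgD, while the FrD gate was B220+ CD43- IgM- IgD-. All 10 libraries therefore come from unmutated donor cells that developed in irradiated hosts, and each mouse gave 1 library of each fraction. The sources used here do not give the ages of donors or hosts. FrC, which lies between them in the Hardy scheme and whose gate the labels do not describe, was sequenced from the same mice. It enters only where a level between the ends of the comparison is described.

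Pro-B cells rearrange the immunoglobulin heavy chain locus with the RAG recombinase, and terminal transferase adds untemplated bases at their joints. A cell that makes a working heavy chain pairs it with the surrogate light chain, the product of Vpreb1, Vpreb2 and Igll1, and shows the pair on its surface with CD79A and CD79B as the pre-B cell receptor. Signals from this receptor and from the interleukin-7 receptor drive a burst of division in large pre-B cells. The cells then leave the cycle, lose the surrogate light chain, express RAG again and rearrange a light chain locus as small late pre-B cells.

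FrD held 80 genes at a higher share of its RNA than FrB, and 69 at a lower share, of 10450 genes tested. The call was edgeR's quasi-likelihood test with the mouse as a block and a Benjamini-Hochberg threshold of 0.05, which gives a background of 0.766% of genes called higher and 0.66% called lower. Without a p adjustment, 1546 genes had a p under 0.05. The groups did not overlap in 68 of the 80 genes and in 69 of the 69. These genes were chosen by a test of the same libraries, so their separation is no further support. Its share over all genes is not given here. The median log2 fold change of the called genes was 1.95 for those higher in FrD and -8.62 for those lower, and over all genes tested it was -0.27. Of the 69 lower genes, 31 had only 1 to 4 counts over all FrD libraries. They passed the count filter only through FrB, and the size of their fold changes rests on those few counts. All levels here are counts scaled to a total of 1000000 endogenous counts per library (CPM), and a log2 fold change is FrD over FrB, followed by its SE. A fold change is thus a change in the share of a library's RNA, not in RNA per cell.

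The number of calls depended on the FrD library of mouse 3, which stood apart. Its total was 6372181 counts, against 20256653 to 24638528 in the other FrD libraries and 12514009 to 16892841 in FrB. Of its detected genes 26.7% had only 1 to 9 counts, against 9.17% to 13.9% in the other FrD libraries. Its median correlation with the rest of its group was 0.575, against 0.817 to 0.839. The summed level of 15 granulocyte markers was 78079 CPM in it, against 27.5 to 65.6 in the other FrD libraries and 43.5 to 10415 in FrB, and 11 erythroid markers summed to 32945, against at most 10411 in the other FrD libraries and 2276 to 23902 in FrB. Without mouse 3, 344 genes were higher (3.26%) and 280 lower (2.66%), and 146 of the 149 genes called with all mice were among them. Without mouse 1, 2, 6 or 7, by contrast, only 9, 7, 5 and 17 genes were called. All 149 kept their direction in each of these fits. That is no further support, since the fits share most of their libraries with the one that chose the genes. Jchain, Vpreb1, Dnajc7 and Btg1 were the named genes called whichever mouse was left out. Values without mouse 3 are given for the named genes and lists whose calls they change.

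**Figure D1:**
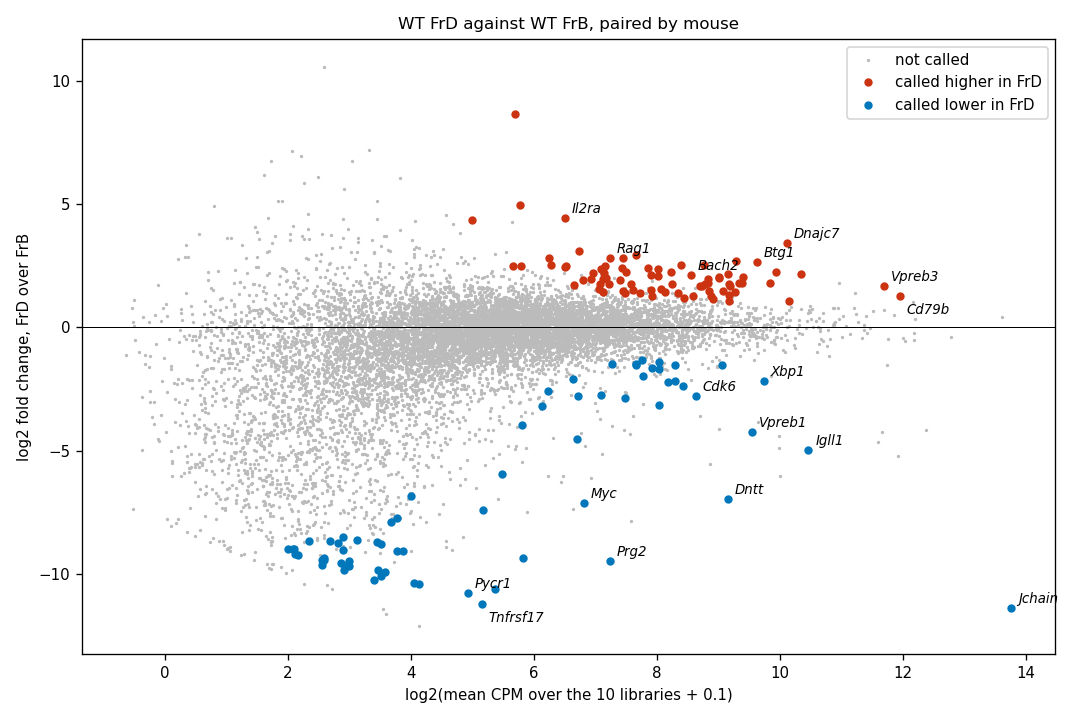
Each point is a gene, with the log2 of its mean CPM over the 10 libraries plus 0.1 on the horizontal axis and its fitted log2 fold change (FrD over FrB, mouse as a block) on the vertical axis. The 80 genes called higher in FrD lie mostly at high levels, while many of the 69 called lower lie at log2 fold changes under -8 where FrD held few counts. Under spike-in scaling most values shift down, and Vpreb3 and Cd79b among the labelled genes change sign.

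RNA per library was lower in FrD. On the log2 scale, endogenous counts over ERCC counts gave 10.56, 10.78, 10.56, 9.02 and 9.09 in FrB of mice 1, 2, 3, 6 and 7, the order used throughout. In FrD it was 8.95, 8.77, 9.54, 7.82 and 6.98. The ratio was lower in FrD in 5 of 5 mice, by 1.59 on average (SD 0.48, 3.01-fold; 1.12 without the 3 most abundant ERCC transcripts, when mouse 3 was higher in FrD), although FrD of mouse 3 lay above FrB of mice 6 and 7. The exact paired permutation test gave p = 0.0625, the smallest that 5 pairs allow (two-sided, adjusted over 3 library measures 0.0938). The paired test therefore cannot reach 0.05, and the exact unpaired permutation test gave p = 0.0397 (adjusted 0.0595). Fewer cells in a library and less RNA per cell cannot be told apart by this ratio. When libraries were scaled to their spike-ins instead of their endogenous totals, the median log2 fold change of all genes moved from -0.27 to -2.04, and 12 genes were called higher and 4644 lower. Of the 80 genes higher in FrD, 51 kept their direction under that scaling and 9 were still called, namely Dnajc7, Mgst1, Slc12a3, Rgs2, Btg1, Il2ra, Prg3, Col5a3 and Reln. Of the 69 lower, 69 were still called, which is no further support, since this scaling moved the median of all genes down.

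Fewer genes were detected in FrD. Counts were found for 11783, 11824, 11648, 11881 and 12018 genes in FrB and for 11014, 10889, 10329, 10813 and 10482 genes in FrD. The groups did not overlap, and the mean difference was -1125 genes (SD 305, exact paired permutation p = 0.0625, the smallest possible, adjusted 0.0938). With each library thinned to the lowest total it was -1414 genes. The 50 highest genes held 17.7 ± 2.101% of counts in FrB and 18.5 ± 3.87% in FrD (SD, n = 5 each, exact paired permutation p = 0.75). The second index of the sequencing primers, as the titles give it, was never the same in FrB as in FrD, so that index and fraction cannot be told apart.

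**Figure D2:**
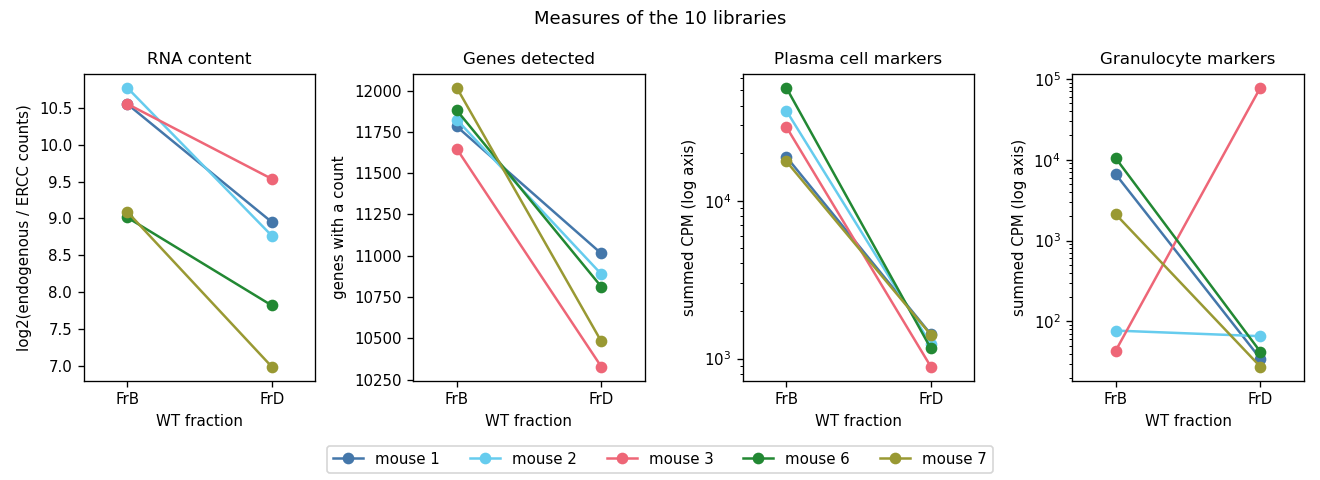
Each line joins FrB and FrD of 1 WT mouse, with the log2 ratio of endogenous counts to spike-in counts, the number of genes with a count, and the summed CPM of 8 plasma cell and of 15 granulocyte markers on the vertical axes (the last 2 on log axes). The first 3 measures are lower in FrD in all 5 mice, and the granulocyte sum is 78079 in FrD of mouse 3 against at most 65.6 in the other FrD libraries.

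The surrogate light chain genes were the clearest loss of the pre-B cell receptor in FrD, while Vpreb3 and Cd79b took a larger share of its RNA. The promoters of Igll1 and Vpreb1 are printed here because these neighbours on chromosome 16 fell together. They are the RefSeq windows of build GRCm38.p6 from 250 bases before to 50 after the start, 5′ to 3′ on the gene's own strand, with E box matches (CANNTG, read on both strands) in capitals. The Igll1 window is chr16:16863936-16864235 and the Vpreb1 window chr16:16869206-16869505, both on the minus strand.
Igll1 promoter: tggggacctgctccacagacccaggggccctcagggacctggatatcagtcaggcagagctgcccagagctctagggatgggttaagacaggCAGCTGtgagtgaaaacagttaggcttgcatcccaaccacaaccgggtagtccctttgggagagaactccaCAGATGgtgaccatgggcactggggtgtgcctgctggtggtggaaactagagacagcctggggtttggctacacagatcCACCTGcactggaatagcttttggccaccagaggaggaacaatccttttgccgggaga
Vpreb1 promoter: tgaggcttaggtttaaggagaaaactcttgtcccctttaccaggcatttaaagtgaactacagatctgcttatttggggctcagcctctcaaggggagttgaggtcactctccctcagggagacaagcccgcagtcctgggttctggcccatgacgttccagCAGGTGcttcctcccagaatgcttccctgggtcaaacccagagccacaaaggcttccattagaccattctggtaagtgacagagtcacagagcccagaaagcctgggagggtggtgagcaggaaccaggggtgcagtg
The Igll1 window holds 3 E box matches and the Vpreb1 window 1. The letters CCCNNGGGA (EBF1), TTTCGCGC and TTTGGCGC (E2F), TTTGAA (cell cycle element CHR) and CCAAT were searched on both strands and are in neither window, which says only that they are not in these 300 bases. The RefSeq start of Vpreb1 lies 1588 bases from the GENCODE start. An E box match was present in 62.4% of 8323 promoters of tested genes, in 63.5% of 63 promoters of genes called higher and in 75.0% of 56 of genes called lower. The EBF1 letters were in 7.35%, 12.7% and 7.14% of the same sets. Of all these promoters, 0.661% and 1.07% held the E2F letters, 12.2% the CHR and 40.0% CCAAT.

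Igll1, which encodes the lambda5 chain (ENSMUSG00000075370, chromosome 16, 16860671 to 16863985, minus strand of mm10), stood at 2863, 2449.9, 2432, 2586 and 3079 CPM in FrB. In FrD it stood at 264, 153, 6.3, 272 and 21.8 CPM. All FrB levels lay far above all FrD levels, and among the FrD libraries mice 3 and 7 were lowest. The log2 fold change was -4.97 ± 0.82 (edgeR adjusted p = 0.0311).

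Vpreb1, the other chain (ENSMUSG00000059305, chromosome 16, 16868403 to 16870843, minus strand), stood at 1512, 1095, 1111, 1605 and 1776 CPM in FrB and at 95, 56.7, 33.3, 179.7 and 36.7 CPM in FrD. Each of the 5 mice was lower in FrD, with no overlap, at a log2 fold change of -4.24 ± 0.35 (edgeR adjusted p = 0.00319). The gene overlaps Top3b on the other strand. Vpreb2, a near-identical copy whose reads could be split with Vpreb1, went from 147 to 226 CPM in FrB to 0 to 23.4 in FrD, and its difference of -7.37 ± 1.49 just missed the threshold (edgeR adjusted p = 0.0533). It was lower in 5 of 5 mice, and the highest FrD level, in mouse 6, was still below every FrB level.

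Vpreb3, a Vpreb relative, rose from 1399, 1322, 1785, 2096 and 2091 CPM in FrB to 4597, 4309, 3896, 5279 and 6442 CPM in FrD (1.68 ± 0.19, edgeR adjusted p = 0.00731). Its groups did not overlap, but under spike-in scaling its value was -0.09. Cd79b, which encodes the signalling chain Ig-beta, stood at 2373, 2325, 2045, 2539.6 and 2527 CPM in FrB and at 6479, 5810.1, 2014, 6359 and 6935 CPM in FrD. It was higher in 4 of 5 mice, and nearly level in mouse 3. The change was 1.28 ± 0.22 (edgeR adjusted p = 0.0336) and -0.48 under spike-in scaling. Cd79a, its partner Ig-alpha, stood at 5657 to 7568 CPM in 4 FrD libraries but at 652 in mouse 3, against 3440.3 to 4244 in FrB. Its log2 fold change was 0.36 ± 0.41 with mouse 3 (edgeR adjusted p = 0.749) and 0.81 without it (adjusted p = 0.011).

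Of 27 genes of pre-B and B cell receptor signalling, 1 was called higher and 0 lower, with a median log2 fold change of 0.20. Without mouse 3 the counts were 4 and 1, and the median was -0.21. The called gene was Dok3, an adaptor that dampens receptor signals. It stood at 48.9, 27.9, 59.8, 35.3 and 63.7 CPM in FrB and at 122, 171, 852, 145 and 203 CPM in FrD (2.42 ± 0.46, edgeR adjusted p = 0.0447). Its FrD level was highest in mouse 3, and the groups did not overlap. Syk, the kinase next to the receptor, had a log2 fold change of 1.22 ± 0.30 (edgeR adjusted p = 0.108, and 0.0331 without mouse 3). For Blnk, the adaptor that Syk phosphorylates, the value was 0.71 ± 0.19 (adjusted p = 0.146, and 0.0233 without mouse 3). Both turned negative under spike-in scaling (-0.55 and -1.06). Zap70, a relative of Syk, was low in both fractions (0.7 to 21.2 CPM in FrB and 0 to 9.2 in FrD), and its fitted value of -1.41 ± 3.10 did not pass (edgeR adjusted p = 0.883).

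The recombination machinery shifted in composition, with Rag1, Polm and Xrcc6 higher and Dntt lower in FrD among 15 genes of recombination and end joining (median 0.24). Without mouse 3 the counts were 4 higher and 0 lower. Rag1, a recombinase subunit (ENSMUSG00000061311, chromosome 2, 101638282 to 101649501, minus strand), stood at 49.3, 67.8, 36.7, 31.9 and 26.9 CPM in FrB. In FrD it stood at 222, 353, 228, 205 and 287 CPM. The lowest FrD level was about 3 times the highest FrB level. The gene rose by 2.83 ± 0.33 (edgeR adjusted p = 0.00748), and its value under spike-in scaling was 1.07 (adjusted p = 0.0562). Rag2, the other subunit, stood at 155, 213, 140.3, 197.7 and 186 CPM in FrB and at 311, 304, 10.2, 339 and 333 CPM in FrD. It was higher in FrD in 4 of 5 mice, and mouse 3 was the exception. The log2 fold change was 0.24 ± 0.61 (edgeR adjusted p = 0.902), 0.84 without mouse 3 (adjusted p = 0.0326) and -1.55 under spike-in scaling. Rag1 and Rag2 both overlap the annotated gene B230118H07Rik, and the strand setting of the counting is not given.

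Dntt, which encodes terminal transferase (ENSMUSG00000025014, chromosome 19, 41029275 to 41059525, plus strand), stood at 1268, 973, 457, 1028 and 1845 CPM in FrB and at 0.2, 21, 0.8, 80.2 and 13.7 CPM in FrD. The FrD levels spread over more than 100-fold, with mouse 6 highest, and none reached the lowest FrB level. The fall was -6.96 ± 1.19 (edgeR adjusted p = 0.0343), and without mouse 3 the value of -6.46 did not pass (adjusted p = 0.145). Polm encodes DNA polymerase mu, a relative of terminal transferase that fills gaps in end joining. It stood at 37.9, 29.8, 44.4, 7.5 and 42.9 CPM in FrB and at 70.5, 151, 229, 86.7 and 222 CPM in FrD (2.49 ± 0.44, edgeR adjusted p = 0.0374). Within each mouse FrD was higher, and the groups did not overlap. Xrcc6, which encodes Ku70 of the end-joining complex, went from 234 to 360.2 CPM to 593 to 1199 CPM (1.48 ± 0.24, edgeR adjusted p = 0.0261), and to -0.28 under spike-in scaling. It overlaps Desi1 on the other strand.

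**Figure D3:**
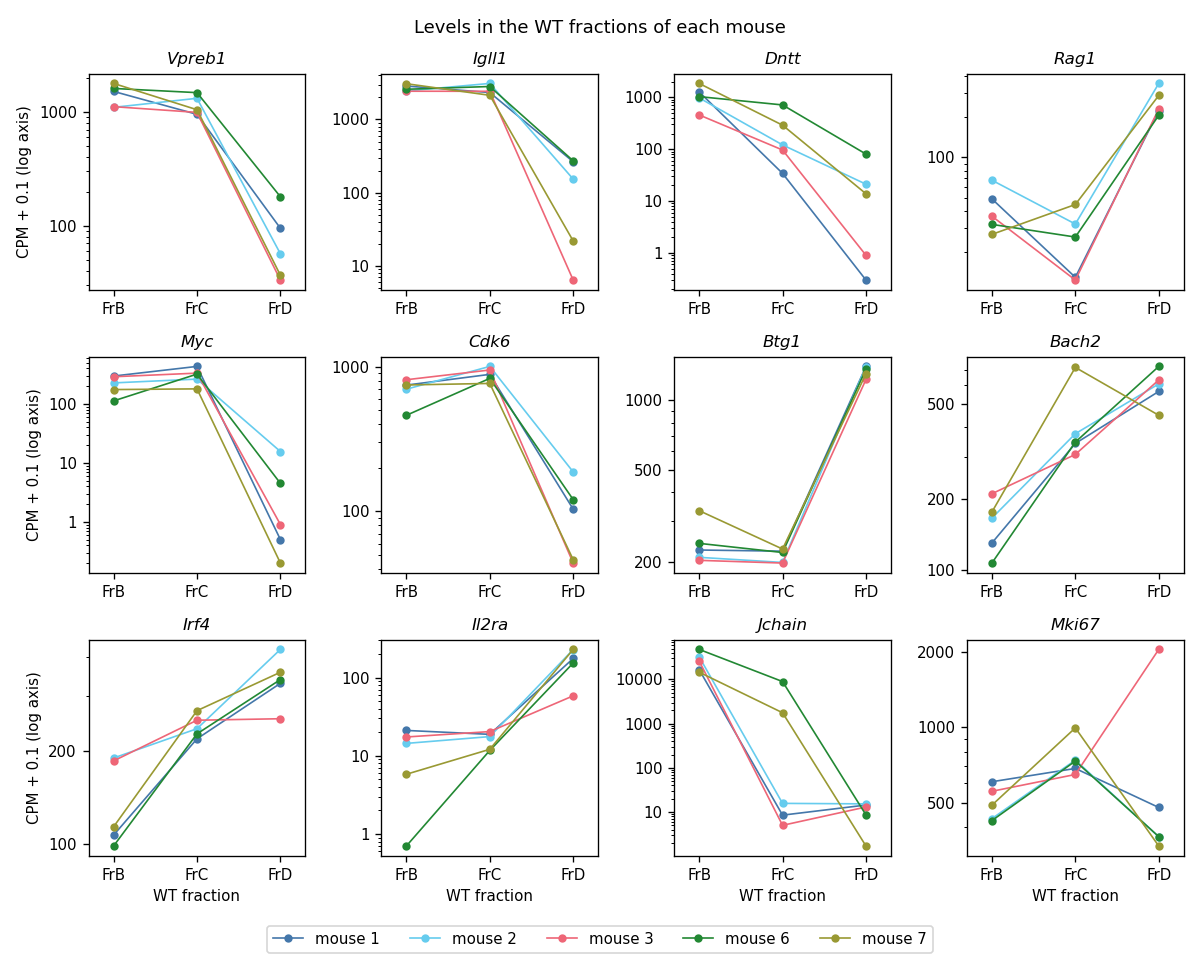
CPM plus 0.1 on a log axis for 12 genes in FrB, FrC and FrD, with 1 line for each of 5 WT mice. Vpreb1, Igll1, Myc and Cdk6 stand near their FrB levels in FrC and far below them in FrD. Rag1 and Btg1 stand near their FrB levels in FrC and above them in FrD. Mki67 is higher in FrC than in FrB in all 5 mice. In FrD it lies below FrB in 4 mice and far above it in mouse 3 (2043 CPM). Of the genes shown, Irf4 takes the opposite sign under spike-in scaling of FrD against FrB, and so does the uncalled Mki67.

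Of 28 transcription factors of the B lineage, 6 were called higher in FrD and 0 lower (median 0.55), and 3 of the 6 take the opposite sign under spike-in scaling. Without mouse 3, 9 were called higher and 1 lower. Bach2, a repressor that restrains plasma cell fate, stood at 129.8, 165, 209.5, 107 and 175 CPM in FrB and at 566, 609, 633, 722 and 449 CPM in FrD. Every FrD library lay above every FrB library (2.12 ± 0.25, edgeR adjusted p = 0.00762). Tcf12, an E protein partner of E2A, stood at 88.5, 124, 88.4, 56.6 and 124 CPM in FrB and at 406, 406, 179.8, 364 and 564 CPM in FrD. The lowest FrD level was that of mouse 3, and the groups did not overlap (2.14 ± 0.27, edgeR adjusted p = 0.0103). Foxp1, a forkhead factor needed in pro-B cells, went from 189 to 282 CPM to 507.2 to 746 CPM (1.67 ± 0.25, edgeR adjusted p = 0.0214).

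Irf4, a factor of pre-B cells that promotes light chain rearrangement, stood at 107, 189, 185, 98.5 and 114 CPM in FrB and at 329.6, 424, 253, 339 and 358 CPM in FrD. Its groups did not overlap, and mouse 3 again was the lowest FrD library (1.51 ± 0.25, edgeR adjusted p = 0.0321). Spib, an ETS factor close to PU.1, went from 111 to 275 CPM to 525 to 630.0 CPM in 4 FrD libraries and 1221 in mouse 3 (1.96 ± 0.35, edgeR adjusted p = 0.0389). Pou2af1, the coactivator OCA-B, went from 202 to 428 CPM to 481 to 893 CPM (1.29 ± 0.23, edgeR adjusted p = 0.0393). Of these 6 factors, Bach2, Tcf12 and Spib kept their direction under spike-in scaling (0.35, 0.36 and 0.20, none passing), while Foxp1, Irf4 and Pou2af1 did not (-0.09, -0.26 and -0.47). Foxp1 overlaps Gm20696 on the same strand.

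The factors that set up the B lineage showed smaller differences. Ebf1 stood at 281, 203, 252.5, 275 and 386 CPM in FrB and at 410.3, 519, 684, 592 and 539.9 CPM in FrD, without overlap and higher in 5 of 5 mice. Its log2 fold change of 1.16 ± 0.27 missed the threshold with the mouse block (edgeR adjusted p = 0.0937) and passed it without the block (0.0251) and without mouse 3 (0.0219). For Pax5, the B lineage commitment factor, the value was 1.05 ± 0.47 (adjusted p = 0.342), and for Tcf3, which encodes E2A, it was 1.04 ± 0.36 (adjusted p = 0.223). Neither passed, and the 2 genes were higher in FrD in 4 and 5 of 5 mice. Ikzf1, which encodes Ikaros, had 0.92 ± 0.27 (edgeR adjusted p = 0.163, 0.0436 without the block, 0.0173 without mouse 3). These 4 genes took negative values under spike-in scaling (-0.60, -0.74, -0.72 and -0.85). Ikzf3, which encodes Aiolos, had -0.65 ± 0.39, Irf8 had -0.55 ± 0.55 and Bcl6, a repressor of pre-B and germinal centre cells, had 0.25 ± 0.90 (edgeR adjusted p = 0.498, 0.707 and 0.93). Bcl6 was near 0 in FrD of mouse 3 (1.6 CPM) and stood at 13.6 to 80.4 CPM in the other 4 FrD libraries. Irf8 overlaps Gm20388 on the same strand.

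Genes of pro-B cells and progenitors did not move as a block. Of 18 tested, 2 were called higher and 0 lower (median -0.88), and without mouse 3 the counts were 2 and 2. Myb, a factor needed for the survival of pro-B cells, stood at 176, 220.5, 260.5, 176 and 254 CPM in FrB and at 494, 662, 635, 674 and 593 CPM in FrD (1.68 ± 0.22, edgeR adjusted p = 0.011, and -0.09 under spike-in scaling). Sox4, another such factor, stood at 29.8, 34.8, 57, 42.8 and 50 CPM in FrB and at 138, 192, 546, 185 and 145 CPM in FrD (2.48 ± 0.38, edgeR adjusted p = 0.0221). Both were higher in every FrD library than in any FrB library, and Sox4 was highest in FrD of mouse 3. Lef1, a WNT pathway factor of early B cells, stood at 102 to 209.8 CPM in FrB and at 30.4 to 106 CPM in FrD (-1.12 ± 0.44, edgeR adjusted p = 0.285). It was lower in 5 of 5 mice and passed without mouse 3 (-1.45, adjusted p = 0.0424).

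Progenitor receptors were low in both fractions, and none was called with all mice. Kit, the stem cell factor receptor, stood at 25.7, 20.7, 6.8, 52 and 18.9 CPM in FrB and at 0, 0, 16.3, 0.5 and 0 CPM in FrD. It was all but absent from FrD except in mouse 3, where granulocyte markers were also high, and whether these go together was not tested. Its log2 fold change was -7.72 ± 2.42 with mouse 3 (edgeR adjusted p = 0.196) and -8.83 without it (adjusted p = 0.00904). Flt3, the FLT3 ligand receptor, went from 6.8 to 18.6 CPM to 0.3 to 13 CPM (-1.89 ± 1.34, edgeR adjusted p = 0.573). Erg, an ETS factor of progenitors, went from 12.9 to 23.2 CPM to at most 0.6 CPM. Its fitted value of -7.72 ± 1.87 did not pass with the mouse block (edgeR adjusted p = 0.102) and passed without it (0.0227).

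Of 14 genes of the interleukin-7 receptor and STAT5 pathway, 1 was called higher and 0 lower (median -0.18), and without mouse 3 the counts were 3 and 0. Il2ra, which encodes CD25, a surface marker of pre-B cells, stood at 21, 14.3, 17.3, 0.6 and 5.7 CPM in FrB and at 176, 228, 58.4, 154 and 229.7 CPM in FrD. The FrD levels were above every FrB level, with mouse 3 lowest among them (4.43 ± 0.84, edgeR adjusted p = 0.0449). The rise held under spike-in scaling (2.55, adjusted p = 0.0412). Il7r, the interleukin-7 receptor chain itself, stood at 207, 181, 216, 197.9 and 220.5 CPM in FrB. In FrD it stood at 653, 567, 90.9, 912 and 650.3 CPM. It was about 3 to 5 times as high in FrD in 4 mice and lower in mouse 3. The log2 fold change was 1.39 ± 0.41 (edgeR adjusted p = 0.173), 1.57 without the block (adjusted p = 0.0381), 1.82 without mouse 3 (adjusted p = 0.000956) and -0.40 under spike-in scaling.

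Myc and Cdk6 fell, and Btg1, Btg2 and Foxo1 rose as a share of RNA (Foxo1 with the opposite sign under spike-in scaling), while no gene of DNA replication or mitosis was called. Of 19 genes of MYC and G1 entry, 0 were called higher and 2 lower (median -0.73). Without mouse 3 the calls were Cdkn1b and Cdkn2d higher and Cdk6 and Ccnd2 lower. The median of the list was then -0.11, against -0.17 over all genes tested. Myc, the growth factor-induced regulator of ribosome and nucleotide synthesis, stood at 298, 228, 289.6, 113 and 175 CPM in FrB and at 0.4, 15.5, 0.8, 4.4 and 0.1 CPM in FrD. No FrD library came near FrB, and mouse 2 was highest among them. The fall was -7.14 ± 1.18 (edgeR adjusted p = 0.0311), and without mouse 3 the value of -6.61 did not pass (adjusted p = 0.0746). Cdk6, the kinase that partners the D cyclins, stood at 744, 697, 810.4, 460.3 and 746 CPM in FrB and at 104, 187, 43.9, 120.5 and 46.3 CPM in FrD. Its groups did not overlap (-2.80 ± 0.36, edgeR adjusted p = 0.0115).

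Ccnd2, which encodes cyclin D2, stood at 304, 356, 416, 274 and 276 CPM in FrB and at 21.9, 2, 85.5, 37.5 and 4.8 CPM in FrD. The groups did not overlap, and the value of -4.17 ± 0.86 missed the threshold (edgeR adjusted p = 0.0584) but passed without mouse 3 (-4.83, adjusted p = 0.0305). Ccnd3, which encodes cyclin D3, the D cyclin that dividing pre-B cells depend on, went from 519.5 to 1482 CPM to 349 to 590.5 CPM (-1.05 ± 0.27, edgeR adjusted p = 0.121, and 0.0331 without the block). It was lower in 5 of 5 mice, and FrB of mouse 6 lay within the FrD range. Ccnd3 overlaps Bysl on the other strand.

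Of 16 FOXO targets and quiescence genes, 3 were called higher and 0 lower (median 0.88), and without mouse 3, 5 of 15 were higher, with Ccng2 and Klf2 added. Btg1, an antiproliferative gene, stood at 225, 209, 203, 240.1 and 333 CPM in FrB. In FrD it stood at 1400.5, 1398, 1229.7, 1364 and 1301 CPM. The FrD libraries lay within a narrow range far above FrB, mouse 3 included (2.67 ± 0.24, edgeR adjusted p = 0.0037). Btg2, of the same family, went from 254, 261, 187, 186 and 248 CPM to 769.6, 1115, 677, 606 and 867 CPM (1.99 ± 0.23, edgeR adjusted p = 0.00748). Foxo1, the factor that activates Rag and Il7r genes in B cells, went from 124, 136, 152, 119 and 101 CPM to 313, 386, 348, 229 and 216 CPM (1.39 ± 0.26, edgeR adjusted p = 0.0403). All 3 were higher in 5 of 5 mice without overlap, and Foxo1 had a value of -0.37 under spike-in scaling, where Btg1 had 0.91 (adjusted p = 0.0495) and Btg2 had 0.22 (adjusted p = 0.522).

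Of 44 genes of G1/S and DNA replication and 40 of G2/M and mitosis, 0 were called in either direction, with medians of -0.45 and -0.02. Without mouse 3, 2 of the first were called in each direction and 1 of the second was called lower. Mki67, which marks cycling cells, stood at 606, 432, 555, 424 and 489 CPM in FrB and at 478, 366, 2043, 366 and 336 CPM in FrD. It was lower in FrD in 4 mice and several times as high in mouse 3, so that its value was 0.21 ± 0.43 with mouse 3 (edgeR adjusted p = 0.873) and -0.28 without it (0.301). Top2a, a topoisomerase of cycling cells, had 0.04 ± 0.24 and Mcm5, a subunit of the replication helicase, had -0.40 ± 0.46 (edgeR adjusted p = 0.955 and 0.757). For Mcm5, FrD of mouse 3 (467 CPM) again lay above the other 4 (55.8 to 115 CPM).

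The medians of growth and biosynthesis genes lay below the -0.27 of all genes, although few members passed. Ribosome biogenesis had a median of -1.64 over 27 genes with 1 called lower (5 without mouse 3). Glycolysis had -1.50 over 23 genes with 2 called lower (without mouse 3, 6 lower and 1 higher), and one-carbon and nucleotide synthesis had -1.53 over 23 genes with 1 called lower (7 without mouse 3). Cholesterol synthesis stood at -1.07 over 22 genes with 0 called (0 without mouse 3). Without mouse 3 the medians of these lists, in the same order, were -1.27, -1.26, -1.06 and -0.59, against -0.17 over all genes tested. DESeq2 called 9, 12, 10 and 4 of their members lower, where it called 1235 of all 10450 genes lower. Gnl3, which encodes the nucleolar protein nucleostemin, stood at 239, 277, 258, 196 and 192 CPM in FrB and at 49.5, 66.7, 7.5, 61.2 and 14.7 CPM in FrD (-2.75 ± 0.48, edgeR adjusted p = 0.0362). The FrD libraries all lay below FrB, with mouse 3 lowest. Tpi1, the glycolytic triosephosphate isomerase, went from 273 to 522 CPM to 91.2 to 188 CPM (-1.39 ± 0.25, edgeR adjusted p = 0.0402).

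Phgdh, the first enzyme of serine synthesis, stood at 402, 266, 418, 168 and 323 CPM in FrB and at 51.3, 72.4, 6.3, 39.7 and 50.8 CPM in FrD. FrD was lower in every mouse and lowest in mouse 3 (-2.85 ± 0.53, edgeR adjusted p = 0.0418). Aldoc, which encodes aldolase C, had 587 counts over the FrB libraries and 1 over the FrD libraries, a ratio of 742.3 after scaling to the summed totals of the groups (95% interval 132.7 to 29370, which covers counting error only, since reads carry no molecular identifiers; edgeR adjusted p = 0.0462). Aldoc passed the count filter only through FrB, so a lower level in FrD was fixed by its choice. Gnl3 overlaps Pbrm1 and Tpi1 overlaps Spsb2, each on the other strand. The 81 cytosolic ribosomal protein genes and the 80 of oxidative phosphorylation had medians of -0.04 and 0.00, with 0 called. Without mouse 3, 6 ribosomal protein genes were called lower. In oxidative phosphorylation 1 was then called higher and 2 lower.

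**Figure D4:**
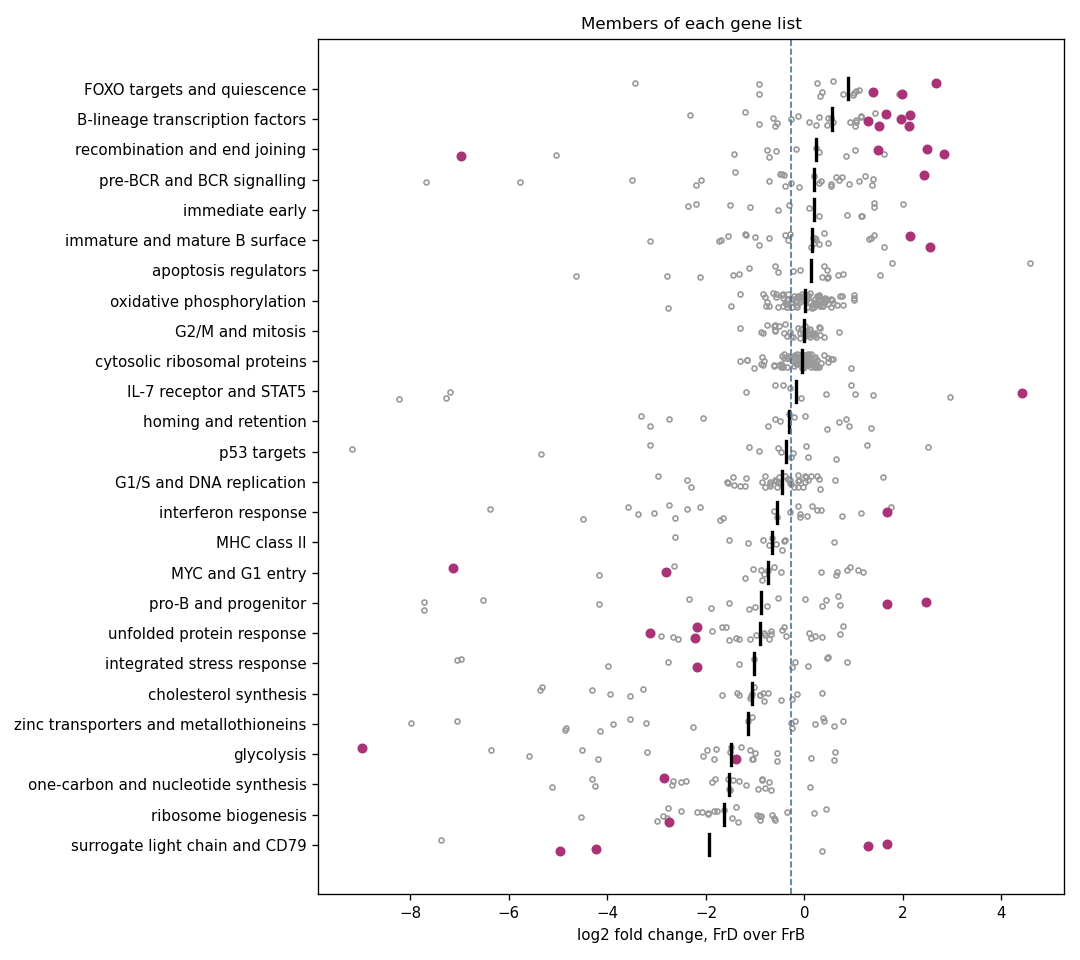
Each circle is a tested member of a gene list, placed by its fitted log2 fold change of FrD over FrB, filled where called, with a black bar at the list's median and a dashed line at the median of all genes tested (-0.27). FOXO targets and quiescence lie highest (median 0.88) and surrogate light chain and CD79 lowest (-1.94), and under spike-in scaling the median of all genes lies at -2.04.

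Jchain, Tnfrsf17, Fkbp11 and Derl3, genes of antibody-secreting cells, fell from FrB to FrD. Of 8 plasma cell markers, 4 were called lower (median -3.89) and 6 without mouse 3. Their summed level ran from 17790 to 52109 CPM in FrB and from 887 to 1424 CPM in FrD, none of the 8 being at 0 in all libraries of a fraction. Most of it was Jchain, the joining chain of secreted IgM and IgA (ENSMUSG00000067149, chromosome 5, 88519809 to 88527891, minus strand), at 16749, 32636, 26279.9, 47967 and 14624 CPM in FrB. In FrD Jchain stood at 14.3, 15.2, 12.9, 8.5 and 1.6 CPM, and the groups lay about 3 orders of magnitude apart (-11.37 ± 0.64, edgeR adjusted p = 0.000342). Whether secreting cells in the FrB sort, whose gate names no IgM or IgD, account for these levels was not tested. Leaving Jchain out of the table changed the calls to 74 higher and 69 lower.

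Tnfrsf17, the survival receptor BCMA of plasma cells, stood at 30.5, 78.1, 50.2, 158 and 37.7 CPM in FrB. FrD held 2 of its counts over all libraries against 5300 in FrB, a ratio of 3351 (95% interval 927.2 to 27680, counting error only; edgeR adjusted p = 0.0037). Fkbp11, a peptidyl-prolyl isomerase of the secretory pathway, had 6413 counts in FrB and 3 in FrD, a ratio of 2703 (924.5 to 13110, edgeR adjusted p = 0.00476). For both genes every FrB library was far above every FrD library. Both passed the count filter only through FrB, so this separation and its direction were fixed by their choice and are no further support. Derl3, a part of the channel that takes misfolded proteins out of the endoplasmic reticulum, stood at 84.1, 302, 148, 247 and 206 CPM in FrB and at 0.9, 4.4, 14.3, 10.2 and 25.1 CPM in FrD (-4.54 ± 0.72, edgeR adjusted p = 0.0261).

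Among the 28 unfolded protein response genes, 3 were called lower and 0 higher (median -0.90), and without mouse 3 the counts were 13 lower and 1 higher. Summed plasma cell markers were lower in the same libraries (887 to 1424 against 17790 to 52109 CPM), and their part in these values was not tested. Xbp1, the response's transcription factor, stood at 1124, 2092, 1235, 1871 and 900.1 CPM in FrB and at 266, 398, 218, 262 and 227 CPM in FrD. The 5 FrD libraries lay close together, with mouse 2 highest, and below all FrB libraries (-2.18 ± 0.25, edgeR adjusted p = 0.00707). Creld2, a secretory pathway chaperone, went from 252.3 to 833 CPM to 14 to 69.5 CPM (-3.13 ± 0.44, edgeR adjusted p = 0.0187). Pdia4, a disulfide isomerase, went from 317 to 679 CPM to 17.9 to 227 CPM (-2.22 ± 0.37, edgeR adjusted p = 0.0309). Slc3a2, the heavy chain of an amino acid transporter and a member of the integrated stress response list, went from 389 to 608 CPM to 77.5 to 204 CPM (-2.19 ± 0.35, edgeR adjusted p = 0.0275). It was the only gene called of 13 in that list (median -1.02), and without mouse 3 there were 2, both lower.

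Among surface genes of B cells, Cd38 and Fcrla rose. In the list of 26 immature and mature B surface genes, 2 were called higher and 0 lower (median 0.15), and without mouse 3 the counts were 5 and 1. Cd38, an ectoenzyme, stood at 163, 146, 118, 110.0 and 123 CPM in FrB and at 830.4, 1106, 275, 731 and 744 CPM in FrD. Mouse 3 was the lowest FrD library and still lay above FrB (2.54 ± 0.25, edgeR adjusted p = 0.00476). Fcrla, an intracellular Fc receptor-like protein, went from 470.4, 478, 525, 458 and 501 CPM to 2570.3, 2039, 714, 2263 and 2915 CPM (2.15 ± 0.28, edgeR adjusted p = 0.0122). Its levels were within 15% of each other in FrB, and FrD was higher in each mouse. Under spike-in scaling Cd38 had 0.77 and Fcrla 0.38, and neither passed (adjusted p = 0.0726 and 0.317).

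Cd72, an inhibitory coreceptor, stood at 878 to 1096 CPM in 4 FrD libraries, 186 in mouse 3 and 202 to 514 in FrB (1.31 ± 0.43, edgeR adjusted p = 0.205, and 1.77 with 0.000956 without mouse 3). Cd2, an adhesion receptor, stood at 335 to 627 CPM in 4 FrD libraries, 14.8 in mouse 3 and 71.2 to 201 in FrB (1.34 ± 0.77, edgeR adjusted p = 0.467, and 2.03 with 0.0253 without mouse 3). Both were thus higher in 4 mice and lower in mouse 3, and both turned negative under spike-in scaling (-0.48 and -0.40). Cd72 overlaps Tesk1 on the other strand. Cd22, an inhibitory lectin, had 0.14 ± 0.57 (edgeR adjusted p = 0.943), with overlapping groups.

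Cd74, which encodes the chain that occupies the groove of new MHC class II molecules, stood at 4330.1, 6031, 3058, 5288 and 5223 CPM in FrB and at 2863, 4402, 271, 1438 and 1198 CPM in FrD. It was lower in 5 of 5 mice with overlap between mice (-1.53 ± 0.38, edgeR adjusted p = 0.107). Of 11 MHC class II genes 0 were called (median -0.66), and without mouse 3, 1 was called lower. Ms4a1, which encodes CD20, went from 457 to 891 CPM to 114 to 587 CPM and was also lower in 5 of 5 mice (-1.20 ± 0.34, edgeR adjusted p = 0.153).

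Of 4 tested genes that encode proteins of the sorting gates, 0 were called (median 0.62), and without mouse 3, 1 was higher. Spn, which encodes CD43, stood at 33.2, 17.4, 25.5, 20.4 and 62.4 CPM in FrB (gated CD43+) and at 5.8, 28.6, 101, 31 and 20.5 CPM in FrD (gated CD43-). The groups overlapped, with mouse 3 highest in FrD (0.01 ± 0.85, edgeR adjusted p = 0.996, and -0.63 without mouse 3). Enpep, which encodes BP-1, the marker that was gated out of FrB, stood at 7.6, 0, 5.6, 1.7 and 1.1 CPM in FrB and at 17.7, 75.2, 8.6, 24 and 19.1 CPM in FrD. All FrD levels lay above all FrB levels, but the value of 3.53 ± 1.59 did not pass (edgeR adjusted p = 0.348). Cd24a, gated positive in FrB, had 0.66 ± 0.20 (edgeR adjusted p = 0.191, and 0.0243 without mouse 3).

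The summed level of 8 B lineage markers was 9407 to 11526 CPM in FrB and 9440 to 24779 CPM in FrD, with mouse 3 lowest in FrD, and none of them was at 0. T cell markers summed to 48.9 to 147.5 CPM in FrB and 0.3 to 56 CPM in FrD, where Cd3e and Cd8a were at 0. Monocyte and macrophage markers summed to 120.8 to 1752 CPM in FrB and to 2421, 9072, 1792, 1260.4 and 23.8 CPM in FrD, so that FrD of mouse 2 stood above the rest. Most of its sum was Lyz2, which encodes lysozyme (8380.1 CPM), and Cd14 was at 0 in FrD. NK cell markers summed to 11.4 to 278 CPM in FrB and 1.6 to 216 in FrD, where Gzmb and Prf1 were at 0, and plasmacytoid dendritic cell markers to 149 to 545 CPM in FrB and 59.4 to 469 in FrD. The part of these levels in the comparison was not tested. Markers of basophils, mast cells and eosinophils summed to 71.9 to 600.8 CPM in FrB and to 1.4 to 5.8 CPM in FrD. Nearly all of this in FrB was Prg2, the major basic protein of eosinophil granules, at 71.8, 262, 251, 600.5 and 313 CPM in FrB and 4.8, 0, 1.4, 0 and 0.1 CPM in FrD (-9.49 ± 1.77, edgeR adjusted p = 0.0418, and 0.119 without mouse 3), while Ms4a2 and Epx, which define mast cells, basophils and eosinophils, were at 0 in FrB.

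Genes of cell survival and homing gave few calls. Of 20 apoptosis regulators 0 were called (median 0.13), with 1 in each direction without mouse 3. Bcl2 stood at 15.2, 41.9, 22.6, 55.7 and 53.4 CPM in FrB and at 1.1, 0.4, 1.7, 14.1 and 0 CPM in FrD, lower in 5 of 5 mice without overlap (-4.63 ± 1.37, edgeR adjusted p = 0.173, and 0.0678 without mouse 3). Bcl2l1, which encodes BCL-XL, the survival protein of pre-B cells, went from 38.5 to 93.3 CPM to 49.9 to 394 CPM (1.53 ± 0.51, edgeR adjusted p = 0.218). Mcl1 had 0.45 ± 0.35 (adjusted p = 0.609). Neither of the last pair passed, and each took a negative value under spike-in scaling (-0.24 and -1.32). Bok, a proapoptotic BCL2 relative outside that list, had 2522 counts in FrB and 2 in FrD, a ratio of 1595. The 95% interval was 441 to 13170, for counting error only (edgeR adjusted p = 0.0103). Bok passed the count filter only through FrB, so a lower level in FrD was fixed by its choice.

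Cxcr4, the receptor that holds B cell precursors in marrow, went from 38.2, 33.8, 25.3, 29.7 and 41.1 CPM to 48.6, 101, 61.8, 81.7 and 96.3 CPM. It was higher in 5 of 5 mice without overlap, and its value of 1.36 ± 0.43 did not pass with the mouse block (edgeR adjusted p = 0.198) and passed without it (0.0431), with -0.41 under spike-in scaling. No gene of 15 in the homing list was called (median -0.31), and 1 was higher without mouse 3. Of 25 interferon response genes, 1 was called higher and 0 lower (median -0.55), and without mouse 3 Isg20 was also called, lower. The gene called with all mice was Ifi27l2a, at 177 to 440.0 CPM in FrB and 776 to 999.6 CPM in FrD (1.68 ± 0.26, edgeR adjusted p = 0.0221, and -0.09 under spike-in scaling). None was called among 14 p53 targets (median -0.38, 2 higher without mouse 3) or 14 immediate early genes (0.19, 2 higher without mouse 3). Without mouse 3 the immediate early median was -0.21 over 16 tested genes. Of 19 zinc transporters and metallothioneins 0 were called (-1.15, 1 lower without mouse 3).

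Outside these groups, Dnajc7 had the lowest p among the genes that rose. Dnajc7, a heat shock cochaperone (ENSMUSG00000014195, chromosome 11, 100582818 to 100620168, minus strand), stood at 167, 189, 189.6, 265 and 221 CPM in FrB. In FrD it stood at 1707, 2029.8, 1240.5, 2118 and 2959 CPM. The lowest FrD level was over 4 times the highest FrB level (3.42 ± 0.24, edgeR adjusted p = 0.00101). Cnp, a myelin phosphodiesterase gene that overlaps Dnajc7 on the other strand, went from 200.3 to 375 CPM to 859 to 1228 CPM (2.06 ± 0.23, edgeR adjusted p = 0.0064). Without strand, reads of the stretch shared by this pair cannot be told apart. Dnajc7 also overlaps Nkiras2.

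Mgst1, a membrane glutathione transferase, stood at 49, 60.8, 64.6, 31.8 and 53.5 CPM in FrB and at 334, 306, 293, 302 and 522 CPM in FrD (2.94 ± 0.29, edgeR adjusted p = 0.00476). Rgs2, a brake on G protein signals, went from 167, 161, 191, 156 and 174 CPM to 1051, 1303, 376, 1099 and 1567 CPM (2.71 ± 0.30, edgeR adjusted p = 0.0064). Both rose in every mouse, as the rule that named them required, and in Rgs2 mouse 3 rose least. Sec63, part of the translocon of the endoplasmic reticulum, went from 88.4 to 115 CPM to 279.5 to 761 CPM (2.54 ± 0.25, edgeR adjusted p = 0.00476). Rhoh, a GTPase of blood cells, went from 168 to 284 CPM to 423 to 1242 CPM (2.18 ± 0.23, edgeR adjusted p = 0.00486). In these 2 genes mouse 3 was again the lowest FrD library, and the groups did not overlap.

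Pafah1b3, a catalytic subunit of platelet-activating factor acetylhydrolase, rose by 2.27 ± 0.23, Lmo4, a LIM-domain cofactor, by 2.40 ± 0.26, and Slc12a3, a sodium and chloride cotransporter, by 3.11 ± 0.36 (edgeR adjusted p = 0.00476, 0.0064 and 0.00731). Their FrB levels were 273 to 457, 64.6 to 97.3 and 12 to 46.2 CPM, and their FrD levels 913 to 2392, 303 to 543 and 144 to 271 CPM. No group overlapped. Under spike-in scaling Dnajc7 had 1.66, Mgst1 1.17, Slc12a3 1.35 and Rgs2 0.94, and these still passed (edgeR adjusted p = 0.00378, 0.0386, 0.0453 and 0.0429). Sec63 had 0.78, Lmo4 0.64, Pafah1b3 0.50, Rhoh 0.42 and Cnp 0.30, which did not (adjusted p = 0.0772, 0.166, 0.172, 0.256 and 0.436).

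Among the falls, Bfsp2, a lens filament protein, stood at 565, 515, 591, 706 and 543 CPM in FrB and at 164, 109, 59.8, 99.8 and 89.6 CPM in FrD (-2.38 ± 0.26, edgeR adjusted p = 0.0064). C1qbp, a protein of the mitochondrial matrix, went from 320.3 to 461 CPM to 76.9 to 140.3 CPM (-1.64 ± 0.25, edgeR adjusted p = 0.0221). Each of the 5 mice showed both falls, as the rule that named these genes required. Gm49342, a model that overlaps Pnp2 on the same strand and is uncertain for that reason, had -1.71 ± 0.25 (edgeR adjusted p = 0.0219). Pycr1, an enzyme of proline synthesis, stood at 33.2, 76.8, 52.2, 62 and 81 CPM in FrB. It had 3 counts over all FrD libraries against 4721 in FrB, a ratio of 1990. The 95% interval was 680.5 to 9653, for counting error only (edgeR adjusted p = 0.00476). Pycr1 passed the count filter only through FrB, so a lower level in FrD was fixed by its choice.

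The number of calls among genes with no count in any FrD library depended on the fit. Such genes can pass the count filter only through FrB, so a lower level in FrD was fixed by their choice. Over all 10450 genes tested, 69 were called lower with the block, 197 without it and 1235 by DESeq2. Without mouse 3, 280 of 10542 were. Of the 35 tested genes without an FrD count, 0 were called by edgeR with the block, 3 with the block and without mouse 3, 35 without the block and 30 by DESeq2 with it. The 3 were Tigit, Faah and Dctd (adjusted p without mouse 3 = 0.00842, 0.0246 and 0.0283, against 0.0551, 0.0821 and 0.0872 with it). Tigit, an inhibitory receptor of T and NK cells, was at least 1160-fold higher in FrB, where it stood at 21.6, 78.4, 22.9, 22.1 and 30 CPM. Faah, a fatty acid amide hydrolase, was at least 776-fold higher, and Dctd, a deaminase of deoxynucleotide synthesis, at least 765-fold. These bounds take 3 counts over the FrD group as the floor and cover counting error only. The 3 genes were chosen for their FrB counts after values were seen. The summed T cell markers were also lower in FrD, and their part in the level of Tigit was not tested.

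FrC levels placed these differences along the sequence from FrB to FrD, and more of the called genes passed at the step after FrC than before it. The FrC mean lay between those of FrB and FrD in 54 of the 80 genes higher in FrD and 48 of the 69 lower. It lay beyond FrB in 26 and 19. In an edgeR fit of the 15 WT libraries of the 3 fractions with the mouse as a block, which shares its libraries with the comparison above, 0 of the 80 were called higher from FrB to FrC and 76 from FrC to FrD. Of the 69, 2 were called lower at the first step and 42 at the second. Both steps reuse libraries that chose these genes, and the share of all genes called at each step is not given here. Igll1 and Vpreb1 had 2565 ± 392 and 1155 ± 229 CPM (SD, n = 5) in FrC, with steps of -0.19 and -4.44 for Igll1 and -0.39 and -3.80 for Vpreb1.

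Xbp1 took its fall at the first step, from 1444 ± 511 CPM in FrB to 259.5 ± 189 in FrC and 274 ± 72.1 in FrD (SD, n = 5 each), with log2 steps of -2.66 and 0.54 (edgeR adjusted p = 0.00568 and 0.305). Dntt had steps of -3.13 and -3.80, of which the second passed (edgeR adjusted p = 0.185 and 0.0174). Bach2 had 1.32 and 0.85, and neither passed (adjusted p = 0.0746 and 0.0702). Jchain was low in FrC of mice 1, 2 and 3 and high in mice 6 and 7, at 8.4, 15.6, 4.9, 8969 and 1766 CPM. The highest mean of Enpep was in FrC, at 96.2 ± 36.1 CPM (SD, n = 5), but neither step passed (4.94 and -1.58, edgeR adjusted p = 0.0831 and 0.338). Ccnd3 stood at 1875 ± 367 CPM in FrC, with a first step of 0.67 that did not pass (edgeR adjusted p = 0.472) and a fall of -1.75 from FrC to FrD (adjusted p = 0.00104).

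The difference between FrB and FrD was set against that in the 5 mice with P198A/P198A marrow in 1 fit of 20 libraries. An interaction of fraction and genotype was called for 7 of 11435 genes (0.0612%), with 1465 at an unadjusted p under 0.05. In the mutants 4 of the 5 FrB libraries had over 15% of their detected genes at 1 to 9 counts, and so had FrD of WT mouse 3. Of the 7 genes, 6 had a more positive and 1 a more negative change in mutants. Without these 5 libraries 25 genes were called, 3 more positive and 22 more negative, but mutant FrB then held 1 library, which is assumed to vary like the other groups. The means of 2 plasma cell markers were also lower in mutant than in WT FrB, at 4863 ± 5033 against 27651 ± 13491 CPM for Jchain and 13.3 ± 14.2 against 70.9 ± 51.9 for Tnfrsf17 (SD, n = 5 each), and their part in the calls was not tested. Xbp1 had 214 ± 203 CPM in mutant FrB and 478 ± 112 in mutant FrD (SD, n = 5 each), which gave a log2 fold change of 1.42 that exceeded the WT value by 3.61 ± 0.58 (edgeR adjusted p = 0.0144). Pycr1 had 7.2 ± 8.3 CPM and 15.9 ± 12 CPM, a difference from WT of 12.08 ± 1.93 (adjusted p = 0.0144). Cd74 had 219 ± 122 CPM and 809.6 ± 340.3 CPM, a difference from WT of 3.08 ± 0.50 (adjusted p = 0.0144). For these 3 genes FrD was the lower fraction in WT and the higher one in mutants.

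The other genes called were Cd2 (mutant means 2.5 ± 2.6 and 218 ± 43.3 CPM), Scap (336 ± 190.4 and 20.9 ± 13.4 CPM), Wfdc17 (0.5 ± 0.7 and 161 ± 97.1 CPM) and Ms4a4c (0.2 ± 0.1 and 112 ± 48.9 CPM). In WT their means were 123 ± 53.4 and 368 ± 224 CPM for Cd2, and 32.3 ± 6.9 and 38.8 ± 35.7 CPM for Scap, the sterol-sensing escort of SREBP. They were 16.9 ± 15.6 and 22.7 ± 42.4 CPM for Wfdc17, and 49.7 ± 16 and 55.9 ± 65.1 CPM for Ms4a4c (SD, n = 5 each). Igll1, Vpreb1, Dntt, Rag1, Myc and Cdk6 were not called, with edgeR adjusted p of 0.556, 0.774, 0.677, 0.2, 0.21 and 0.806, which does not show that they moved alike in both genotypes.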

How the data were processed

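The authors deposited 1 table of unnormalized counts per gene, with 22050 rows (92 ERCC transcripts and 21958 genes). HISAT2 2.1.0, featureCounts 1.4.6 (Subread), DESeq2 and build mm10 are named, per the submitters' processing notes. The sources used here do not give the annotation or the strand setting of the counting. GENCODE M21 gave names and coordinates for 21728 of the genes. Immunoglobulin constant genes and mitochondrial genes are not analysed here.

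The 5 WT FrB and 5 WT FrD libraries were fitted with edgeR 4.0.16 in R 4.3.3 (quasi-likelihood test, robust estimation, TMM scaling, low genes removed by filterByExpr at min.count 10 and min.total.count 15, ERCC rows left out), with the mouse as a block, two-sided, and Benjamini-Hochberg adjustment over all genes tested. Both libraries of a mouse come from the same animal, and the pairing rests on that: their deviations from the group means correlated by -0.016 to 0.052, and the highest correlation with another mouse was 0.026 to 0.072. Library measures were compared by exact permutation tests. With the mouse as a block, differences between mice that both fractions share are removed. P-values of that fit therefore measure how far the difference between FrD and FrB varied among the 5 mice. No mouse gave repeat libraries of a fraction, so noise of sorting and library preparation is part of this spread and cannot be told apart from it.

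Named genes were the 12 called genes of lowest p in each direction that were protein coding and moved the same way in 5 of 5 mice, up to 4 called members of each list in each direction, and a set of anchor genes, of which 1 is not reported here. Gene lists were described by counts and medians. Members, lists and anchors were chosen with earlier results of these data known. Levels are CPM of endogenous counts and errors are SD for levels and SE for fold changes. The floor for a group without counts was 3 counts over the group, and intervals are exact at 95%, for counting error only.

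Alternatives were no block, DESeq2 size factors, ERCC scaling, no filter, a mean of at least 50 counts, DESeq2 1.42.0, limma 3.58.1 voom, all 20 WT libraries, each mouse left out, a test against a 2-fold change and the table without Jchain (planned together with immunoglobulin constant genes). Voom with quality weights and an unpaired fit without FrD of mouse 3 were chosen after seeing the data. Only the main fit was tested on simulated counts, which held no differences between mice.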

Additional observations from a re-analysis of the deposited data

Results flagged for a closer look

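In groups of 5 libraries, a value was singled out when its gap to the nearest library was a large part of the group's range, which chance does in about 1 of 20 groups. This held for 33 groups (16.7% of those looked at, which were both fractions of the library measures and of the 94 genes named), 18 of them through FrD of mouse 3 and 4 in FrB.

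FrD of mouse 3 was singled out by its total of 6372181 counts, by 26.7% of detected genes having 1 to 9 counts and by 25.3% of counts in the 50 highest genes. It was low in Cd79a (652 CPM), Cd79b (2014), Rag2 (10.2) and Cd72 (185.8). It was high in Spib (1221), Sox4 (546), Dok3 (852), Syk (852), Mki67 (2043), Mcm5 (467), Slc3a2 (204), Spn (101), Lmo4 (543) and Kit (16.3), and its Fkbp11 level was 0.2 CPM where the other FrD libraries had none.

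Of the other FrD libraries, mouse 6 was singled out for 5 genes, mouse 2 for 4, mouse 7 for 2 and mouse 1 for 0. Mouse 6 was high in Vpreb2 (23.4 CPM), Dntt (80.2), Ikzf3 (108), Bcl2 (14.1) and Pycr1 (0.1). Mouse 2 was high in Myc (15.5), Xbp1 (398), Enpep (75.2) and Wfdc17 (98.4), and mouse 7 in Xrcc6 (1199) and Mgst1 (522). In FrB, mouse 7 was high in Btg1 (333), mouse 2 in Tigit (78.4) and mouse 6 in the share of the 50 highest genes (21.3%), while mouse 6 was low in Faah (16.2).

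The change from FrB to FrD differed between mutant and WT mice for 7 genes by edgeR's interaction test. The difference (mutant minus WT, log2) was 5.26 for Cd2, -4.39 for Scap, 3.61 for Xbp1, 9.45 for Wfdc17, 12.08 for Pycr1, 3.08 for Cd74 and 9.58 for Ms4a4c. Mutant FrB libraries of low complexity entered this test, and their part in it was not tested gene by gene.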

How the results depend on the processing

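With the replicate block, 80 genes were higher and 69 lower, and without it 197 and 197, with 147 of the 149 genes called in both. Counts higher and lower were 12 and 4644 with ERCC scaling, 380 and 1235 by DESeq2, 226 and 348 by voom, 137 and 184 with all 20 WT libraries and the block, 200 and 240 with them and no block, and 12 and 7 against a 2-fold change. Quality weights gave 501 and 723, and leaving out only FrD of mouse 3 without pairing 736 and 763. Without 1 mouse at a time, 2 to 344 were higher and 3 to 280 lower, most without mouse 3. Size factors, either filter and leaving out Jchain stayed within 1.5 times. Interaction calls were 58 with no block and 25 without low-complexity libraries, which left 1 mutant FrB library. The cause of these differences was not tested.

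Genes detected differed by -1125 unpaired (exact permutation, adjusted p = 0.0238) and by -1837 from 10 counts. The share of the 50 highest genes differed by -1.007 to 2.299 percentage points without 1 mouse, and was lower in FrD only without mouse 3.

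With ERCC scaling these genes turned negative: Vpreb3 -0.09, Cd79a -1.42, Cd79b -0.48, Rag2 -1.55, Xrcc6 -0.28, Foxp1 -0.09, Irf4 -0.26, Pou2af1 -0.47, Foxo1 -0.37, Myb -0.09, Ebf1 -0.60, Pax5 -0.74, Tcf3 -0.72, Ikzf1 -0.85, Bcl6 -1.45, Il7r -0.40, Blnk -1.06, Syk -0.55, Mki67 -1.56, Top2a -1.72, Cd22 -1.64, Cd72 -0.48, Cd2 -0.40, Spn -1.75, Cd24a -1.11, Cxcr4 -0.41, Bcl2l1 -0.24, Mcl1 -1.32 and Ifi27l2a -0.09.

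Other changes of sign were in genes that were not called. Leaving out 1 mouse gave -0.03 to 0.84 for Rag2, -0.39 to 0.85 for Bcl6, -4.44 to 0.09 for Zap70, -0.28 to 0.36 for Mki67, -0.12 to 0.14 for Top2a, -0.34 to 0.56 for Cd22, -0.63 to 0.60 for Spn, -0.48 to 0.25 for Scap and -1.63 to 0.04 for Wfdc17. No block gave 0.23 for Mcm5, 0.63 for Scap, 0.42 for Wfdc17 and 0.22 for Ms4a4c. Voom gave 0.16 for Scap, 0.40 for Wfdc17 and 0.15 for Ms4a4c. The 20 WT libraries gave -0.16 for Spn, 0.33 for Scap and 0.02 for Wfdc17 with the block, and 0.19 for Mcm5, 0.60 for Scap, 0.43 for Wfdc17 and 0.23 for Ms4a4c with no block. Quality weights gave -0.08 for Mki67, -0.04 for Top2a, -0.38 for Spn, 0.38 for Wfdc17 and 0.25 for Ms4a4c. Without FrD of mouse 3 only, values were -0.31 for Mki67, -0.14 for Top2a, -0.49 for Spn, 0.72 for Wfdc17 and 0.54 for Ms4a4c. Of the 53 named genes that were called, 9 changed sign under ERCC scaling and none under any other setting. With ERCC scaling 15 more kept their sign and lost the call, and 29 stayed called. For those lower in FrD this is no further support, since that scaling moved the median of all genes down.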

Other observations

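Other genes called in the comparison, named here after their values were seen, fell outside the lists. Trib2, a pseudokinase gene, stood at 12.6, 17.6, 25.1, 23.2 and 24.7 CPM in FrB and at 173, 106, 134, 75.1 and 170.2 CPM in FrD of mice 1, 2, 3, 6 and 7 (2.83 ± 0.44, SE, edgeR adjusted p = 0.0254). Its groups did not overlap. Slfn2, a schlafen gene of quiescent lymphocytes, went from 98.8, 101, 66.9, 119 and 153 CPM to 377, 579, 212, 354 and 539.7 CPM (2.08 ± 0.26, edgeR adjusted p = 0.00983), and Rrm2b, the p53-induced subunit of ribonucleotide reductase, from 15.7, 59.9, 29.3, 31.1 and 29.3 CPM to 179, 119.9, 113, 157 and 176 CPM (2.46 ± 0.45, edgeR adjusted p = 0.0402). Nfkbia, the NF-kappaB inhibitor, rose by 1.45 ± 0.27 (edgeR adjusted p = 0.0403), but had -0.31 under spike-in scaling. Mif, a cytokine gene, fell from 743, 856, 939, 788 and 715 CPM to 227, 175, 329, 277 and 255 CPM (-1.53 ± 0.26, edgeR adjusted p = 0.0336).

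The proteoglycan genes Prg2 and Prg3, which both encode eosinophil granule proteins, went in opposite directions. Prg3 stood at 0.5, 4.4, 8.6, 5 and 4.1 CPM in FrB and at 90.9, 94.9, 74.2, 89.7 and 173 CPM in FrD (4.98 ± 0.71, edgeR adjusted p = 0.0187). Prg2 stood at 71.8, 262, 251, 600.5 and 313 CPM in FrB and at 4.8, 0, 1.4, 0 and 0.1 CPM in FrD (-9.49 ± 1.77, edgeR adjusted p = 0.0418). Of their neighbours in that marker list, Ms4a2 was at 0 in both fractions and Epx in FrB. In FrB of these WT mice the genes Fcrl5 and Zbtb32 were also measured at 2.3 to 37.6 and 16 to 46.5 CPM, against at most 0.2 CPM in FrD (edgeR adjusted p = 0.0243 and 0.0221), beside the plasma cell markers given above.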
